A study of Equus caballus with 14 samples.

Results

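Neutrophil-recruiting CXC chemokines and granulocyte colony-stimulating factor were described in the mediastinal lymph nodes of horses with recurrent airway obstruction (RAO, also called heaves). The genes were chosen by name as CXCL1, CXCL6, IL8 (the chemokine now called CXCL8) and CSF3 (the gene for granulocyte colony-stimulating factor). All 4 were located on the array, by 9 probes, among the 599 genes that could be named from 1251 of the 43603 probes. IL8 had 6 probes and CXCL1, CXCL6 and CSF3 had 1 probe each.

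CXCL1, CXCL6 and IL8 belong to the CXC chemokines that carry the Glu-Leu-Arg (ELR) motif before their first cysteines. They bind the receptors CXCR1 and CXCR2 on neutrophils and draw these cells out of the blood along a gradient. CSF3 encodes the growth factor that drives the production of neutrophils in bone marrow, their release into blood and their survival. Epithelial cells, macrophages, fibroblasts and endothelial cells make these molecules when IL-1, TNF, IL-17 or bacterial products reach them. Neutrophils in the airways are a defining feature of RAO, and the mediastinal nodes receive lymph from the lungs.

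Lymph node RNA was taken from 7 horses with heaves, called RAO-affected here, and 7 healthy control horses, all of mixed breed. Both groups had been stabled with dusty hay before euthanasia, an exposure under which the control horses remained healthy. The RAO-affected horses were older on average, so age and disease cannot be told apart in these comparisons. Each horse was hybridized to 1 Agilent array with 1 dye, without technical replicates, and horses are named here by the numbers of their labels. All signals are quantile-normalized log2 intensities, so that a difference of 1 is a 2-fold change, and levels were compared between horses for a given probe and not between probes.

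Each of the 4 slides carried arrays of both groups. Slide 1 carried control horses 3 and 5 with RAO-affected horse 4, and its scan was apart from the rest. Background intensities, as array medians, were 45.5 to 46 there and 55.5 to 97 elsewhere. Correlations between arrays were 0.986 to 0.991 within slide 1 and 0.923 to 0.959 between slide 1 and the remaining slides. Between 32696 and 39945 probes per array were well above background. The T cell marker CD2 was high in both groups (14.03 ± 0.48 in control and 13.61 ± 0.74 in RAO-affected horses, SD, n = 7 each), while no B cell or lymph node stroma marker on the lists used could be located. In whole tissue of this kind, more cells of a type and more RNA per cell cannot be told apart.

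In the horse gene table of RefSeq (assembly TB-T2T), CXCL1, CXCL6 and IL8 lie in a single cluster, in the order CXCL1, MIP-2BETA, CXCL2, LOC100630489, PPBP, CXCL6 and IL8. The primers that the study designed for RT-PCR of these chemokines are shown because they name the chemokine transcripts that the study followed beyond the array. They are written 5′ to 3′ in lower case, with no part marked.
IL8 forward: gctttctgcagctctgtgtg
IL8 reverse: aaggtttggagtgcgtcttg
CXCL1 forward: gaacatccagagcgtgaagg
CXCL1 reverse: gggcttcaggattgagacaag
CXCL6 forward: agagaactgcgttgcatgtg
CXCL6 reverse: gggtccagacagacttccttc
The array probes were matched through the same transcript records as these primers. Cross-hybridization of a probe with a neighbouring chemokine transcript was not tested.

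Compared to control horses, the signals of all 3 chemokines were higher on average in RAO-affected horses, by 4.41-fold for IL8, 2.49-fold for CXCL6 and 2.32-fold for CXCL1. These increases met a limit of at least 2-fold with an unadjusted limma p below 0.05, and that of CSF3 did not. Over all 38674 probes tested, 1.47% met this limit, 1.1% with higher and 0.372% with lower signals in RAO-affected horses. After Benjamini-Hochberg adjustment in limma, neither these genes nor any other probe was below 0.05 (0 of 38674, 0.0%, smallest adjusted p = 0.873), although 2177 probes (5.63%) were so without adjustment. The up-regulation described here therefore rests on the unadjusted limit.

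IL8, the main neutrophil attractant of the family in large mammals, ranged in control horses from 7.49 through a median of 9.39 to 11.03. In RAO-affected horses its lowest, median and highest signals were 9.17, 11.16 and 14.84. RAO-affected horses 8 (14.84) and 14 (12.98) stood highest, and 5 RAO-affected horses exceeded the highest control horse. RAO-affected horses 4 (9.17) and 12 (10.31) lay within the control range, so the groups overlapped. At least 5 RAO-affected horses above all controls were found for 1.36% of all probes tested.

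The mean IL8 signal was 11.55 ± 1.85 in RAO-affected and 9.41 ± 1.19 in control horses (SD, n = 7 each). The difference of 2.14 (SE 0.78, limma) had a 95% confidence interval of 0.47 to 3.82, that is 1.38- to 14.1-fold. In an exact permutation test (two-sided) p was 0.0192, and limma gave an unadjusted p of 0.0159 and an adjusted p of 0.873. With slide as a fixed block the difference was 1.73 (SE 0.68) and met the same limit, as 1.06% of all probes did with a higher signal. Within slides 1, 2, 3 and 4 it was 0.47, 2.03, 1.97 and 2.10, with 1 or 2 horses per group on a slide. The mean was thus higher in RAO-affected horses on each slide, least so on slide 1, and the horses of both groups overlapped on slides 1 and 4.

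The 6 IL8 probes gave the same picture. Their increases were 3.98- to 4.96-fold, each passed the unadjusted limit, and with slide as a block the differences were 1.65 to 1.94. Signals of any 2 of these probes correlated over the 14 horses at 0.976 to 0.998. These probes detect the same transcript in the same RNA and are not independent measurements.

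**Figure D1:**
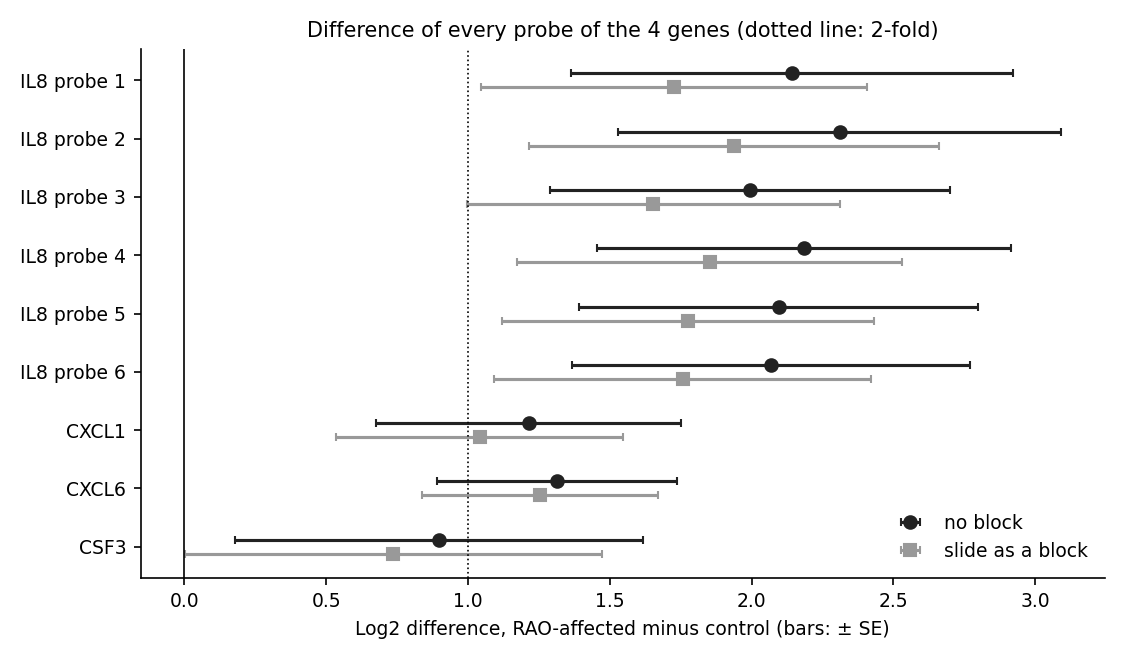
RAO-affected minus control signal on the log2 scale (x axis, bars ± SE, 7 horses per group) for each of the 9 probes, without a block (black circles) and with slide as a block (grey squares), with the dotted line at 2-fold. The 6 IL8 probes lie between 1.99 and 2.31 without the block, CXCL1 and CXCL6 at 1.21 and 1.32, and CSF3 at 0.90 with the widest bars for its size.

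CXCL6, also known as granulocyte chemotactic protein 2, ranged in control horses from 8.33 through a median of 9.86 to 10.66. In RAO-affected horses the lowest signal was 9.59, the median 10.81 and the highest 11.70. The RAO-affected horses lay closer together than for IL8. RAO-affected horses 2, 6, 8, 10 and 12, at 10.69 to 11.70, exceeded all control horses, while horses 4 and 14 fell within the control range. As given for IL8, 1.36% of all probes tested had at least 5 RAO-affected horses above all controls. Control horses 7, 11 and 13 lay below every RAO-affected horse.

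The mean CXCL6 signal was 10.79 ± 0.76 in RAO-affected and 9.47 ± 0.91 in control horses (SD, n = 7 each), a difference of 1.32 (SE 0.42, 95% confidence interval 0.41 to 2.22, limma). Two-sided p-values were 0.0163 in the exact permutation test and, unadjusted, 0.00787 in limma. The difference was 1.25 with slide as a block. Within slides 2, 3 and 4 it was 1.94, 1.09 and 1.95, and the RAO-affected and control horses on each of these slides did not overlap. Each slide held only 1 or 2 horses per group, and the share of all probes without such overlap was not computed. On slide 1 the direction was opposite, -0.67, with RAO-affected horse 4 below control horses 3 and 5.

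CXCL1, the chemokine first known as melanoma growth-stimulating activity, ranged from 11.80 through a median of 12.01 to 12.98 in control horses. In RAO-affected horses it ran from 11.77 through 12.97 to 15.81. Only RAO-affected horses 8 (14.95), 12 (13.39) and 14 (15.81) exceeded all control horses, and RAO-affected horse 2 was the lowest of all 14 horses. At least 3 RAO-affected horses above all controls were found for 9.16% of the probes tested.

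The mean CXCL1 signal was 13.43 ± 1.45 in RAO-affected and 12.21 ± 0.43 in control horses (SD, n = 7 each), a difference of 1.21 (SE 0.54, 95% confidence interval 0.06 to 2.37, limma). The two-sided exact permutation p was 0.0414. With slide as a block the difference was 1.04 and no longer passed the unadjusted limit (limma, unadjusted p = 0.0652). Within slides 1 to 4 the differences were 0.51, 0.15, 0.87 and 2.40. The difference lost its call in 8 of the 14 analyses that left out 1 horse, among them those without RAO-affected horse 8 (0.96) and RAO-affected horse 14 (0.82).

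CSF3 showed a different form. In control horses its signals lay close together, from 7.01 through a median of 7.48 to 7.79. In RAO-affected horses they ran from 6.53 through a median of 7.24 to 12.23. RAO-affected horse 8 (12.23) stood far above all others, followed by horses 14 (9.80) and 12 (8.12), and the remaining 4 RAO-affected horses (6.53 to 7.24) lay within or below the control range. The median was therefore lower, and the mean higher, in RAO-affected than in control horses.

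The mean CSF3 signal was 8.33 ± 2.02 in RAO-affected and 7.43 ± 0.25 in control horses (SD, n = 7 each). The difference of 0.90 (SE 0.72, limma) did not pass the limit (two-sided exact permutation p = 0.351), and its 95% confidence interval of -0.65 to 2.45 covers 0.637- to 5.45-fold. It was 0.74 with slide as a block and 0.25 without RAO-affected horse 8. Within slides 1 to 4 it was -0.45, -0.41, 2.41 and 1.55, so that the higher mean came from the slides of horses 8, 12 and 14. Those slides also held both groups.

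**Figure D2:**
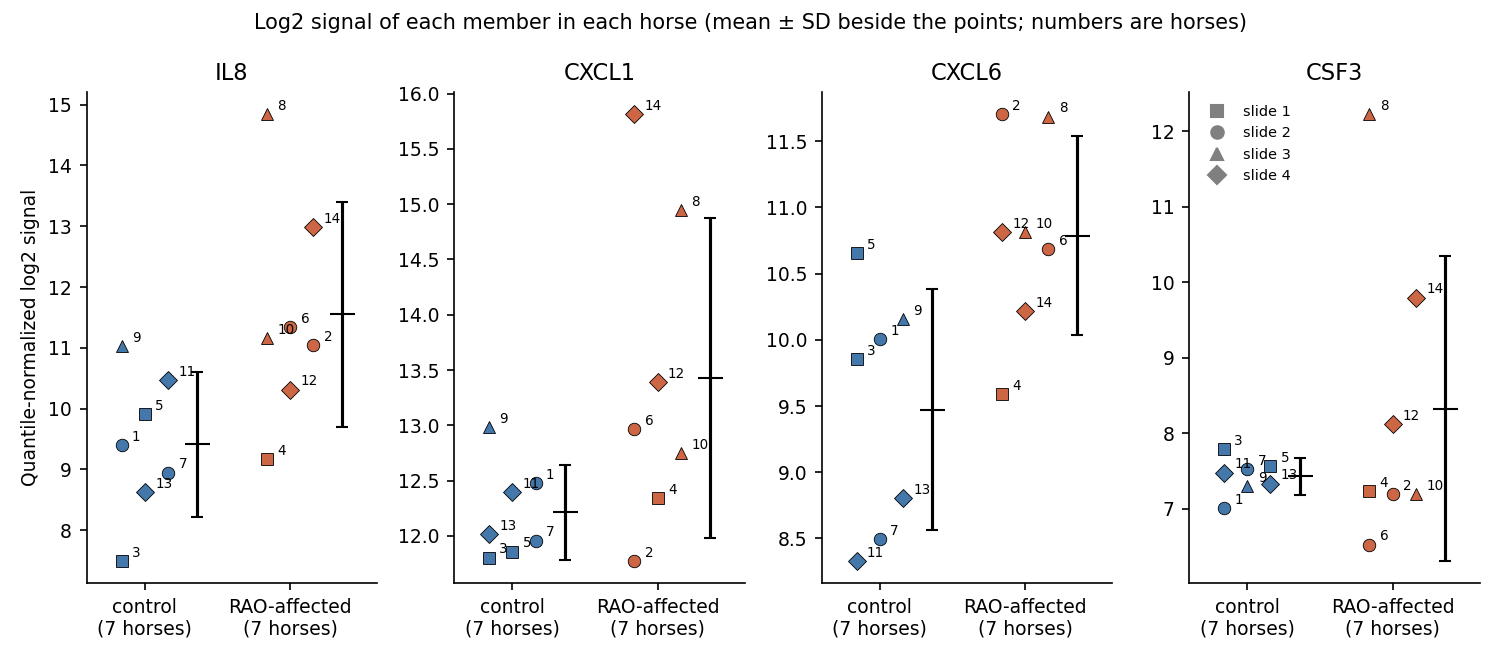
Quantile-normalized log2 signal (y axis, a separate scale for each gene) of IL8, CXCL1, CXCL6 and CSF3 in 7 control and 7 RAO-affected horses, with a point per horse, its number beside it and its slide as the symbol, and mean ± SD at the right of each group. RAO-affected horses 8 and 14 are the highest of all for IL8, CXCL1 and CSF3, whereas for CXCL6 horses 2 and 8 are highest. The RAO-affected horses lie closer together for CXCL6 (SD 0.76) than for IL8, CXCL1 or CSF3.

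Spread within each group was also compared. The SD over RAO-affected horses exceeded that over control horses 8.17 times for CSF3, 3.39 times for CXCL1 and 1.55 times for IL8, and for CXCL6 the ratio was 0.827. Over all probes tested the median ratio was 1.05, and 54.8% of probes had the larger SD in RAO-affected horses. By this ratio CSF3 stood at percentile 99.9 of all probes, CXCL1 at 98.4, IL8 at 79.4 and CXCL6 at 27.6.

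Tests of the spread were run for the 4 genes. When deviations were taken from each group's median, no difference in spread passed (two-sided exact permutation p = 0.0927 for CSF3, 0.101 for CXCL1, 0.608 for IL8 and 0.470 for CXCL6). With deviations from the group mean, a choice made after seeing the data, the unadjusted exact permutation p was 0.00175 for CSF3 and 0.0291 for CXCL1. For CSF3, RAO-affected horses 8 (12.23) and 14 (9.80) raised the RAO-affected mean to 8.33, so horses near the control range also counted as far from it. The CSF3 p from the group mean is therefore not read as a wider spread over all RAO-affected horses. With slide removed first, the log2 SD ratio of CSF3 was 1.30 in place of 3.03 (exact permutation p = 0.296). Slide effects were estimated from both groups together. Slide 3 held control horse 9 with RAO-affected horses 8 and 10, so the high CSF3 signal of horse 8 also shifted control horse 9 in that step. The slide step therefore cannot show how much of the spread belonged to slides. Whether the wider spread of CSF3 in RAO-affected horses passed depended on how deviations were measured.

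**Figure D3:**
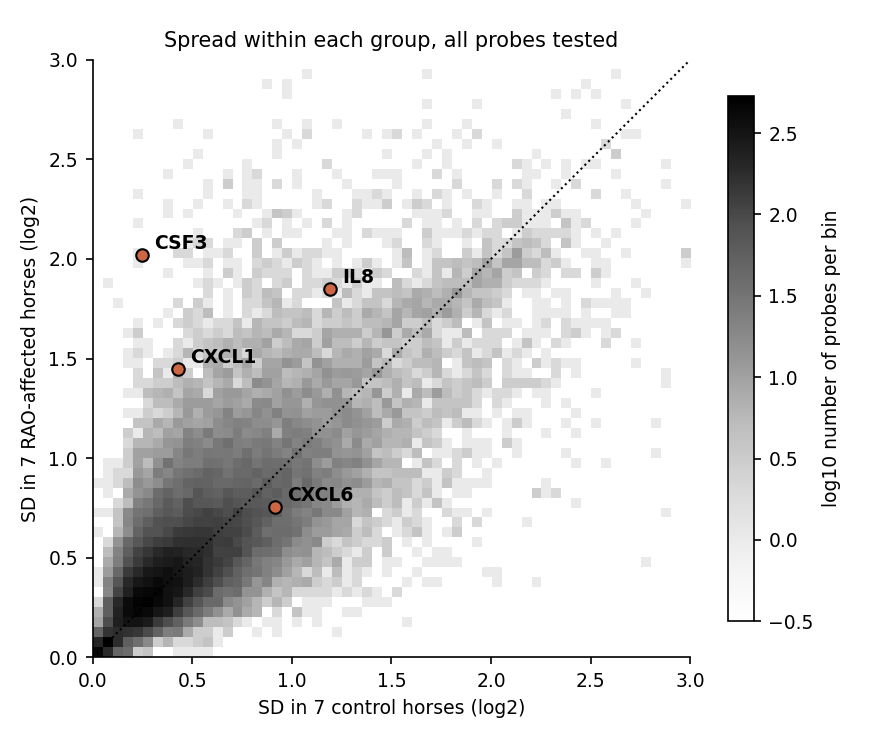
SD of the log2 signal over 7 control horses (x axis) against that over 7 RAO-affected horses (y axis), as the number of probes per bin for 38622 of the 38674 probes tested (grey, log10 scale), with the 4 genes as points and equal SD as the dotted line. CSF3 and CXCL1 lie far above the line, IL8 moderately above it and CXCL6 below it.

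The horses with high signals were shared between genes. Among all 14 horses, RAO-affected horse 8 ranked first for IL8 and CSF3 and was within the highest 5 for all 4 genes. RAO-affected horse 14 ranked 1 for CXCL1 and 2 for IL8 and CSF3, but 7 for CXCL6. RAO-affected horse 2 ranked 1 for CXCL6 and 5 for IL8, yet 14 for CXCL1 and 12 for CSF3. RAO-affected horse 4, the only RAO-affected horse on slide 1, ranked 9 to 11 for the 4 genes.

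**Figure D4:**
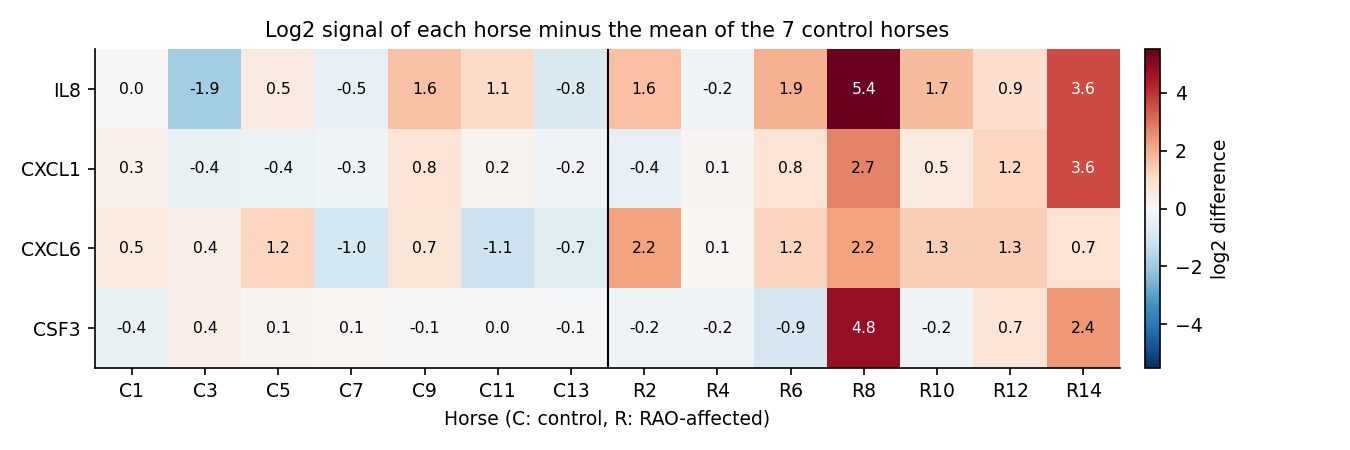
Log2 signal of each horse (columns, C for control and R for RAO-affected, with the horse number) minus the mean of the 7 control horses, for IL8, CXCL1, CXCL6 and CSF3 (rows), with red for higher and blue for lower. R8 is red in all 4 rows and R14 in IL8, CXCL1 and CSF3 above all, R2 is red for CXCL6 and IL8 alone, and R4 is near the control mean throughout.

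To ask whether the genes varied together beyond the group difference, group means were removed and the 6 pairs were correlated over the 14 horses. IL8 and CXCL1 had r = 0.73 (permutation p = 0.0114, 0.0685 after Benjamini-Hochberg adjustment over the 6 pairs) and Spearman's rho = 0.70 (permutation p = 0.00884, adjusted 0.0530). Their r was 0.76 among control horses alone, 0.76 among RAO-affected horses alone and 0.61 without RAO-affected horses 4 and 8.

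CSF3 was related to IL8 with r = 0.69 (permutation p = 0.0244, adjusted 0.0733) and to CXCL1 with r = 0.74 (permutation p = 0.0397, adjusted 0.0793). The rank correlations were 0.38 (permutation p = 0.198, adjusted 0.362) and 0.63 (permutation p = 0.0541, adjusted 0.162). Without the 2 horses farthest from the median, r of CSF3 with IL8 dropped to 0.28. It was 0.32 without RAO-affected horse 8 alone and 0.67 without horse 4 alone, so this relation rested on horse 8. For CSF3 r with CXCL1 was 0.53 without horses 8 and 14. Within groups, CSF3 and IL8 correlated at -0.42 in control and 0.86 in RAO-affected horses, and CSF3 and CXCL1 at -0.64 and 0.80. The difference of these correlations between groups was not tested.

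CXCL6 followed none of the others closely. Its r was 0.34 with IL8 (permutation p = 0.241, adjusted 0.362; rho = 0.35, p = 0.241, adjusted 0.362), 0.21 with CSF3 (permutation p = 0.479, adjusted 0.574; rho = 0.07, p = 0.805, adjusted 0.903) and 0.01 with CXCL1 (permutation p = 0.979, adjusted 0.979; rho = 0.04, p = 0.903, adjusted 0.903). Without the 2 horses farthest from the median these were -0.06, 0.14 and -0.01. No pair passed 0.05 after adjustment. With slide removed as well as group, r was 0.71 for IL8 with CXCL1, 0.70 for IL8 with CSF3 and 0.71 for CXCL1 with CSF3. Their adjusted permutation p-values were 0.0404, 0.0404 and 0.0473. These permutations ran within groups and not within slides. The p-values therefore do not allow for the slide terms and are not read as a pass.

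**Figure D5:**
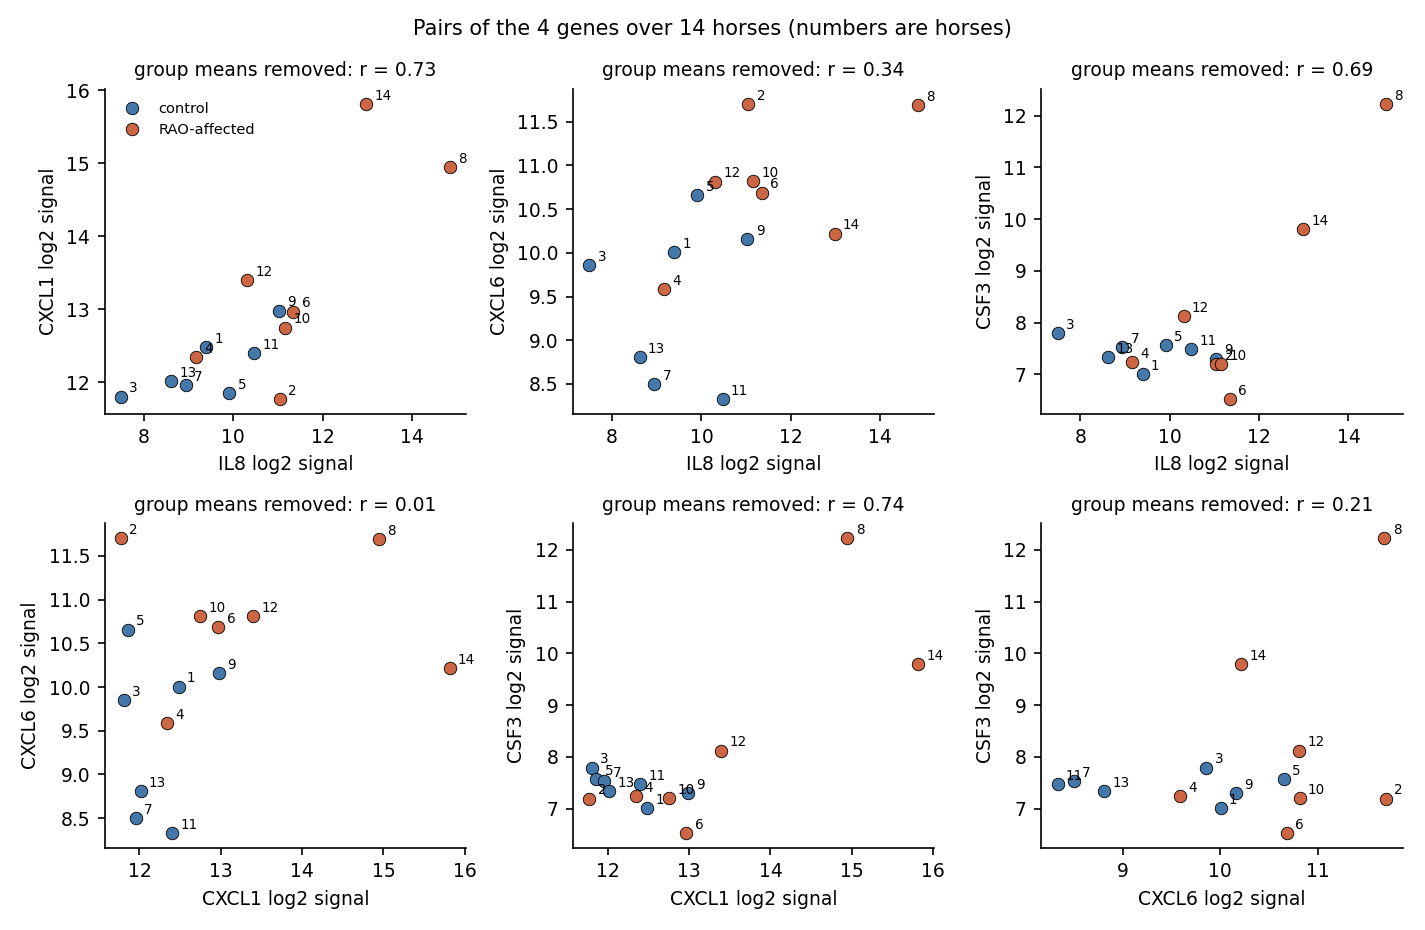
Log2 signals of each pair of IL8, CXCL1, CXCL6 and CSF3 over 14 horses (blue for control, orange for RAO-affected, with the horse number), with Pearson's r after removal of the group means above each panel. IL8 and CXCL1 rise together in both groups, CSF3 is flat in most horses and high in RAO-affected horses 8 and 14, and CXCL6 shows little relation to CXCL1 (r = 0.01).

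The genes with the most similar pattern over horses were sought among 523 named genes, again with group means removed, and are given as a description over 14 horses that share arrays and slides. For IL8 they were TNFAIP6, a hyaluronan-binding protein made in inflammation (r = 0.87), PTGS2, the inducible cyclooxygenase (0.82), IL1B (0.79), the calcium pump ATP2A2 (0.75) and the collagenase MMP1 (0.74). Without RAO-affected horse 8 the r of IL8 with these genes was 0.78, 0.75, 0.64, 0.64 and 0.54. For CSF3 the most similar genes were IL1B (0.92), IL6 (0.89), TNFAIP6 (0.85), SPI2 (0.82) and the tight junction gene CLDN10 (0.81). Without RAO-affected horse 8 the r of CSF3 with these 5 genes was 0.73, 0.62, 0.73, 0.53 and 0.63. Among control horses alone it was -0.02, 0.06, 0.21, -0.23 and 0.48.

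CXCL1 had other neighbours. They were RBP4, the retinol carrier of blood (r = 0.90), CLDN10 (0.84), PMP22 (0.84), the nuclear lamina gene LMNA (0.83) and MTMR9 (0.80). Without RAO-affected horse 8 these values ran from 0.83 to 0.93. RAO-affected horse 14, the highest for CXCL1, was not left out for these genes. Among control horses alone their r was 0.65, -0.04, 0.47, 0.84 and 0.64. For CXCL6 the highest values over the 14 horses were lower, 0.64 for ABCE1, CENPH and TRA2B, 0.63 for COL5A2 and 0.61 for TMCO2. With slide removed as well as group, the CXCL6 values were 0.44, 0.45, 0.48, 0.50 and 0.63 in the same order. Of the genes on these 4 lists, IL1B and TNFAIP6 stood on those of IL8 and CSF3, and CLDN10 on those of CXCL1 and CSF3.

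Of 18 listed inducers of these chemokines, 8 were located among the named probes, and none of these 8 met the 2-fold and unadjusted limit. Their differences were positive for 7 of 8, IL17A at 0.01 among them, with a median of 0.38. Over all probes tested 43.8% of differences were positive and the median was -0.03. IL1B, a strong inducer of all 4 genes, ran from 9.92 to 10.74 in control and from 10.16 to 14.37 in RAO-affected horses, with a difference of 0.92 (exact permutation p = 0.0594). TLR4, the endotoxin receptor, was 1.49-fold higher (difference 0.58, exact permutation p = 0.00816), below the 2-fold limit. IL17A, a cytokine of T cells that acts on epithelium to release these chemokines, differed by 0.01 (exact permutation p = 0.990), with only 4 control and 3 RAO-affected horses well above background. TNF differed by -0.12, IL6 by 0.35, TLR2 by 0.42 and RELA by 0.13. IL1A, one of the 7 positive values, was well above background in only 2 control and 2 RAO-affected horses. IL22, a listed inducer that was not located, is among the most up-regulated genes that the study reports from these arrays.

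Over the 14 horses, 32 relations between an inducer and a member gene were computed with group means removed, and none passed 0.05 after Benjamini-Hochberg adjustment. IL1B had r = 0.92 with CSF3 (permutation p = 0.00330, adjusted 0.0528; rho = 0.71, p = 0.0135, adjusted 0.0865), and 0.72 without RAO-affected horses 4 and 8. This r was -0.02 among control horses and 0.94 among RAO-affected horses, a difference that was not tested. Its r with IL8 was 0.79 (permutation p = 0.00206, adjusted 0.0528; rho = 0.72, p = 0.00566, adjusted 0.0865), and 0.48 without the same horses. TLR4 had r = 0.77 with CXCL1 (permutation p = 0.00922, adjusted 0.0738; rho = 0.61, p = 0.0620, adjusted 0.220), and 0.62 without RAO-affected horses 4 and 14. IL17A had r = 0.65 with CSF3 (permutation p = 0.0481, adjusted 0.193; rho = 0.48, p = 0.0796, adjusted 0.227), which was 0.13 without RAO-affected horses 8 and 10.

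Other genes of the same families gave few values. CXCL10, an attractant of activated T cells and the only 1 of 9 listed CXC chemokines without the ELR motif that was located, measured 15.02 ± 0.65 in control and 14.27 ± 1.02 in RAO-affected horses (SD, n = 7 each; difference -0.76, exact permutation p = 0.121), a direction opposite to that of IL8, CXCL1 and CXCL6. It was saturated in 1 RAO-affected horse. CSF2, the granulocyte-macrophage colony-stimulating factor, differed by -0.39 (exact permutation p = 0.626), with 6 control and 5 RAO-affected horses well above background. The 4 receptor genes and the 4 further ELR chemokines on the lists could not be located among the named probes. CXCL2, which is among them, is named as up-regulated by the study.

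Of 8 listed adhesion molecules that slow and hold leukocytes on endothelium, 4 were located. SELP, P-selectin of endothelium and platelets, rose 3.12-fold, from 10.41 ± 0.70 to 12.06 ± 1.29 (SD, n = 7 each; exact permutation p = 0.00932). SELE, endothelial E-selectin, had a mean difference of 1.46 that did not pass in limma (unadjusted p = 0.142), with a saturated signal of 15.81 in RAO-affected horse 12 and no other RAO-affected horse above 10.31, and its 5 probes ran from -0.07 to 1.46. VCAM1 and PECAM1 differed by 0.17 and 0.45.

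Some markers of cell types that make or answer these signals met the unadjusted limit of 2-fold in limma, and none passed after adjustment. Of 18 neutrophil markers 1 was located, MMP9, the gelatinase of neutrophil granules that macrophages also make. It measured 13.44 ± 0.93 in control and 14.76 ± 0.82 in RAO-affected horses (SD, n = 7 each), with overlap of the groups, and rose 2.50-fold (exact permutation p = 0.0204). Of 7 macrophage and monocyte markers 3 were located. CD163 (difference 2.61) and CD14 (1.11, saturated in 1 RAO-affected horse) rose, and CD68, saturated in 1 horse of each group, differed by 0.04. The log2 of their summed signal was 14.44 to 16.92 in control and 15.04 to 16.80 in RAO-affected horses.

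Of 6 endothelial markers 4 were located, and SELP and CAV1 (1.21) rose. The 5 CAV1 probes ran from 0.79 to 1.21, and with slide as a block CAV1 differed by 1.16 (limma, unadjusted p = 0.0522). The log2 summed signals of the 4 endothelial markers were 13.48 to 15.39 in control and 14.36 to 16.74 in RAO-affected horses. Of 5 fibroblast markers 2 were located. LUM rose by 1.51, with 2 RAO-affected horses saturated and RAO-affected horse 10 left out for a flagged spot. DCN, saturated in 1 control and 4 RAO-affected horses, differed by 0.19. The log2 summed signals of both were 14.49 to 16.34 in control and 15.05 to 16.99 in RAO-affected horses. Of 9 epithelial markers only the airway marker SFTPA1 was located, and it differed by 0.54 (exact permutation p = 0.557). SFTPC, a listed epithelial marker that was not located, is among the most up-regulated genes of the study. Of 6 mast cell and eosinophil markers 2 were located, FCER1A and TPSB2, which differed by 1.04 and 0.77 without a call. PRG2, on the same list but not located, is among the most down-regulated genes of the study. The part of these cell types in the chemokine differences was not tested.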

How the data were processed

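The authors deposited 1-colour scanner output for 14 arrays, with spot intensities from which Feature Extraction 10.5.1.1, per the file headers, had subtracted background, and a table of ratios to each probe's median, whose log2 correlated at 0.999 or above with the centred intensities. Control spots (1417 per array) and flagged spots (19 to 177) were left out. Spots of a probe were averaged, and log2 intensities were quantile normalized. Testing used limma 3.58.1 in R 4.3.3 and covered probes that exceeded background well on 4 or more of 14 arrays (two-sided, Benjamini-Hochberg over all probes), unpaired, since the labels gave no pairs. Single genes also had an exact permutation test of the group labels, and correlations 100000 permutations within groups. The number of arrays limits the precision.

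Probes were named through RefSeq (1231) and the primer table's transcripts (20). The probe with the highest mean signal represented a gene. The members and lists were chosen with earlier results of these data known. Genes named were the members, all located list genes and the 5 genes most like each member. Alternatives were 75th percentile scaling, normexp (offset 50), other filters, slide as a block, array weights, a t-test, the ratio table, the mean over probes, and arrays left out. The script was tested on simulated data.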

Additional observations from a re-analysis of the deposited data

Results flagged for a closer look

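Single horses far from their group were sought with Dixon's ratio, which divides a horse's distance from its nearest neighbour by the range of the 7 horses, for the 4 genes and the other listed genes. It exceeded its critical value in 9 of 58 groups, where chance gives about 1 in 20. LUM in RAO-affected horses, counted among the 58, lacked the value of horse 10 and could not be flagged. None of the 4 genes was among them.

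RAO-affected horse 8, the highest horse for IL8 and CSF3, stood apart for 3 inducers. Its IL1B signal was 14.37, against 10.16 to 11.51 in the other 6 RAO-affected horses (ratio 0.679). Its IL6 signal was 14.22, against 9.57 to 11.11 (ratio 0.669), and its TLR2 signal 15.61, against 14.07 to 14.63 (ratio 0.636). RAO-affected horse 4 stood apart for TNF, with 10.90 against 9.54 to 10.10 (ratio 0.586), and for CD2, with 15.23 against at most 13.57 (ratio 0.742). RAO-affected horse 12 did so for SELE, with a saturated 15.81 against 8.19 to 10.31 (ratio 0.721).

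Among control horses, horse 9 stood apart for IL1A, with 6.01 against 3.23 to 4.27 (ratio 0.627), a probe well above background in only 4 of 14 horses. Control horse 5 had a CD14 signal of 15.80, against 13.45 to 14.36 (ratio 0.612), and control horse 7 an FCER1A signal of 14.09, against 10.87 to 12.10 (ratio 0.618).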

How the results depend on the processing

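The differences of the 4 genes kept their direction under all 100 alternatives run for them, and those of IL8, CXCL6 and CSF3 kept their side of the limit. The CXCL1 difference no longer passed with slide as a block (1.04), array weights (0.88), the unpaired t-test on the same values (1.21) and without slide 1 (1.24), nor without control horse 3, 5, 7, 11 or 13 or RAO-affected horse 8, 12 or 14. Leaving out 1 horse in turn, differences were 1.59 to 2.54 for IL8, 0.82 to 1.49 for CXCL1, 1.12 to 1.52 for CXCL6 and 0.25 to 1.20 for CSF3. The 569 probes past 2-fold and an unadjusted p under 0.05 became 268 with normexp, 291 with the filter at 14 arrays, fewer probes being tested, and 1111 without slide 1. They were 386 to 1117 without 1 horse, the highest without RAO-affected horse 4.

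Spread was held to an exact permutation p under 0.05, without adjustment over the genes. The log2 SD ratio of CSF3 (3.03) passed this with 75th percentile scaling (3.20) and without slide 1 (3.40). With deviations from the group mean, the ratios of CSF3 (3.03) and CXCL1 (1.76) also passed. Without 1 horse these ratios were 2.23 to 3.51 for CSF3, passing without RAO-affected horse 2, 4, 6 or 10, 1.35 to 2.34 for CXCL1, passing without RAO-affected horse 6 or 10, 0.08 to 1.01 for IL8 and -0.63 to -0.12 for CXCL6, whose ratio turned to 0.075 with slide as a block. The correlation of CXCL1 with CXCL6 turned negative with 75th percentile scaling (-0.0055), without slide 1 (-0.082) and in RAO-affected horses alone (-0.028), and was -0.17 to 0.22 without 1 horse. In control horses alone, correlations with CSF3 were -0.42 for IL8, -0.64 for CXCL1 and -0.070 for CXCL6. With slide as a block, r was 0.71 for IL8 with CXCL1, 0.70 for IL8 with CSF3 and 0.71 for CXCL1 with CSF3. Their adjusted permutation p-values were below 0.05, from permutations that did not allow for the slide terms. Without 1 horse these 3 were 0.65 to 0.78, 0.32 to 0.78 and 0.73 to 0.77, IL8 with CXCL6 was 0.16 to 0.48, and CXCL6 with CSF3 -0.15 to 0.32. The causes were not tested. No paired analysis was possible because neither the labels nor the methods, which name a paired test, say which horses formed a pair, and the groups share no replicate number.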
